A study of Homo sapiens with 25 samples.

Results

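In NCI-H2087 cells 7776 of 75657 NKX2-1 peaks (10.3%) lay on a CTCF peak and carried no peak of the 5 other factors mapped in the same line, FOXA1, FOXA2, c-Jun, EP300 and SOX2. They are called the CTCF-only NKX2-1 peaks here, and the 5 other factors the partners. Members were chosen by peak overlap: at least 1 bp with a CTCF peak on chromosomes 1 to 22 and X and none with a partner peak, so CTCF and partner binding are the selection and not a result. Chromatin immunoprecipitation with sequencing (ChIP-seq) had been run on 4 established lines of human lung adenocarcinoma (HCC364, NCI-H358, NCI-H441 and NCI-H2087), labelled naïve with no drug or genetic change named, fixed with formaldehyde and sonicated. Each pairing of a line and an antibody is 1 library, with peaks deposited for 20 libraries. NKX2-1, H3K27ac and H3K4me1 were mapped in all 4 lines, and CTCF, the partners, H3K4me3 and RNA polymerase II in NCI-H2087 alone.

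NKX2-1 is the homeobox transcription factor that specifies lung epithelium and keeps alveolar cells in their identity, and many lung adenocarcinomas still express it. CTCF is a zinc finger protein present in nearly all cells that binds a long DNA motif, halts cohesin and anchors chromatin loops. FOXA1 and FOXA2 open chromatin at enhancers, c-Jun is an AP-1 subunit, EP300 acetylates histones, and SOX2 is a lineage factor of the airway. H3K27ac marks active enhancers and promoters, H3K4me1 marks enhancers, and H3K4me3 marks gene starts.

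The sequences of 6 promoters are shown for the letters beneath the summits where a CTCF core is present, and most members are unlike them in lying away from promoters. They were taken as the promoters that hold both summits of a CTCF-only peak and a match to the core of the CTCF motif (CC, any 3 bases, AG, any 2 bases, GGC) within the 250 bases before the start, in order of NKX2-1 fold, where fold is the peak caller's ratio of the summit signal over its local background. Each is a 100-base window around the match, from RefSeq on GRCh38.p14, 5′ to 3′ on the strand of the gene, with the matching letters in capitals, and the MED4 window holds a second match left in lower case.
OTUD3: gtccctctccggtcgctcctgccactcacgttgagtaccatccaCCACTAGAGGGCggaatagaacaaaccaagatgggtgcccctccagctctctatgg
HYCC1: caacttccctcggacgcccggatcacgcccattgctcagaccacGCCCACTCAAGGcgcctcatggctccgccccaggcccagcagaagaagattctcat
WIPF2: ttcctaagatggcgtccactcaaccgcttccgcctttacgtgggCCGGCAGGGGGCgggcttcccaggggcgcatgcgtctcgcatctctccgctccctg
MED4: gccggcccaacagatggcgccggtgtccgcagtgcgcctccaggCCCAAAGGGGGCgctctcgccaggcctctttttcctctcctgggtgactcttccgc
PRPF18: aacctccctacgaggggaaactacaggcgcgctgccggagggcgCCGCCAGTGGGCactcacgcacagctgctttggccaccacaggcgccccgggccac
AHCYL1: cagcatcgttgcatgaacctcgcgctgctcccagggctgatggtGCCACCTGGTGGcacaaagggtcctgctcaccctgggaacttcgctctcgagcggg

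The OTUD3 window, chr1:19882215-19882314 on the plus strand, lies upstream of a gene for a deubiquitinase. Its match was centred 13 bp from the CTCF summit and 17 bp from the NKX2-1 summit, and the 2 summits were 4 bp apart. At WIPF2 (chr17:40219177-40219276, plus strand), which encodes a regulator of actin assembly, the match lay 18 bp from the CTCF summit and 30 bp from that of NKX2-1. The HYCC1 window (chr7:23014238-23014337, minus strand) holds its match on the opposite strand, 85 bp from the CTCF summit and 1 bp from the NKX2-1 summit, and the matching letters include the NKX core CAAG. At MED4, a Mediator subunit gene (chr13:48095156-48095255, minus strand), PRPF18, a splicing factor gene (chr10:13586814-13586913, plus strand), and AHCYL1 (chr1:109984541-109984640, plus strand, match on the opposite strand) the match lay 9, 14 and 17 bp from the CTCF summit and 112, 67 and 138 bp from the NKX2-1 summit. Both summits lie inside the printed window at OTUD3 and WIPF2 only, since the CTCF summit is outside it at HYCC1 and the NKX2-1 summit at MED4, PRPF18 and AHCYL1. The NKX2-1 folds of the 6 peaks in NCI-H2087 ran from 24.9 at OTUD3 and 24.1 at HYCC1 to 13.4 at AHCYL1, and all 6 regions were also bound by NKX2-1 in the other 3 lines.

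Both strands of every promoter in the table, 250 bases before to 50 after a start, were searched for the CTCF core, for CAAGTG, the preferred word of NKX2-1, and for CAAG, which CAAGTG contains. The CTCF core was in 150 of 462 promoters with both summits of a CTCF-only peak, or 32.5% (so most of these promoters lacked it, 95% interval 28.2% to 36.9%, exact Clopper-Pearson), against 10.6% of all 34961 promoters. The 462 promoters came from 404 CTCF-only peaks, so some peaks were counted in more than 1 promoter, and the interval treats promoters as separate. It was in 32.1% (30.0% to 34.4%) of the promoters that held a CTCF summit and no CTCF-only summit, so the 2 kinds of CTCF promoter had the core about equally often. CAAGTG was in 10.8% (8.14% to 14.02%) of the 462 promoters and in 11.5% of all promoters, and CAAG in 88.1% (84.8% to 90.9%) and 86.0%. These matches are letters and not tested sites, and sequence outside the promoter windows was not analysed here.

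Counted over the rule, 15606 NKX2-1 peaks (20.6%) overlapped CTCF. Of these 49.8% had no partner, against 27.5% of the 60051 NKX2-1 peaks without CTCF. FOXA1, FOXA2, c-Jun and SOX2 peaks were each less common on CTCF-bound NKX2-1 peaks than on the others: FOXA1 on 38.0% against 57.9%, FOXA2 on 40.3% against 63.4%, c-Jun on 19.4% against 29.7% and SOX2 on 6.03% against 13.1%. EP300 alone was slightly more common there, on 10.5% against 8.93%. The CTCF-only peaks sat on 7720 of 61072 CTCF peaks (12.6%), and 7645 of those held exactly 1. At the edge of the rule, the 22 members that overlapped a CTCF peak by no more than 10 bp had a median NKX2-1 fold of 5.84, and the 17 partner-free peaks that missed one by under 10 bp had 5.77.

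For comparison, 3 other sets of NKX2-1 peaks of NCI-H2087 were taken: 7830 on CTCF with at least 1 partner, 16502 with neither CTCF nor a partner, and 43549 with a partner and no CTCF. The CTCF-only peaks were modest NKX2-1 peaks on strong CTCF peaks. Their NKX2-1 fold had a median of 6.44 (quartiles 5.12 and 8.34, highest 44.2), against 9.70 (6.56 and 15.6) on CTCF with a partner and 6.42 (5.11 and 8.50) with neither. Their median width was 376 bp, against 658 bp and 374 bp. The CTCF fold beneath them had a median of 49.9 (24.3 and 71.1), against 22.5 (8.45 and 53.5) beneath the partnered peaks and 23.5 in the whole CTCF list. In fold and width they therefore matched the peaks with neither CTCF nor a partner, and differed from the partnered peaks in both. Peaks with a partner and no CTCF had a median fold of 10.03 and a median width of 564 bp. The rule asks for no overlap with a partner peak, which a narrow peak meets more easily. The part of this selection in the differences was not tested. The fold and p of a peak with a −log10 p under 250 can be solved for its pileup. This gave a median of 31 fragments at the summit of a CTCF-only peak, 52 with CTCF and a partner, and 29 with neither. These are medians over 7775, 7476 and 16493 peaks, so the partnered peaks of highest −log10 p are missing from the 52. NKX2-1 and CTCF fold were nearly unrelated across the 7776 peaks (Pearson r of log2 folds 0.01, Spearman rho 0.04), as a description over peaks of 1 library per factor. The same figures were −0.19 and −0.18 across the 7830 partnered peaks.

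The NKX2-1 summit of a CTCF-only peak usually lay almost on the CTCF summit. The 2 summits were a median of 50 bp apart (quartiles 22 and 124 bp, farthest 3179 bp), against 131 bp (50 and 363) on CTCF with a partner. Within 10 bp lay 12.0% of the CTCF-only peaks and 5.53% of the partnered ones, within 50 bp 50.04% (48.9% to 51.2%) and 25.5%, and within 100 bp 71.0% (70.0% to 72.0%) and 43.1%. The signed distance had its median at −1 bp and 1 broad maximum, but CTCF motif strands outside promoters were not used here and a strand-dependent offset would be averaged out. Since overlap was required, the widths of the NKX2-1 and CTCF peaks limit the distance. The partnered NKX2-1 peaks were the wider ones. The CTCF peaks went the other way, with a median of 845 bp beneath CTCF-only peaks and 669 bp at other NKX2-1 peaks. The part of width in the difference was not tested.

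**Figure D1:**
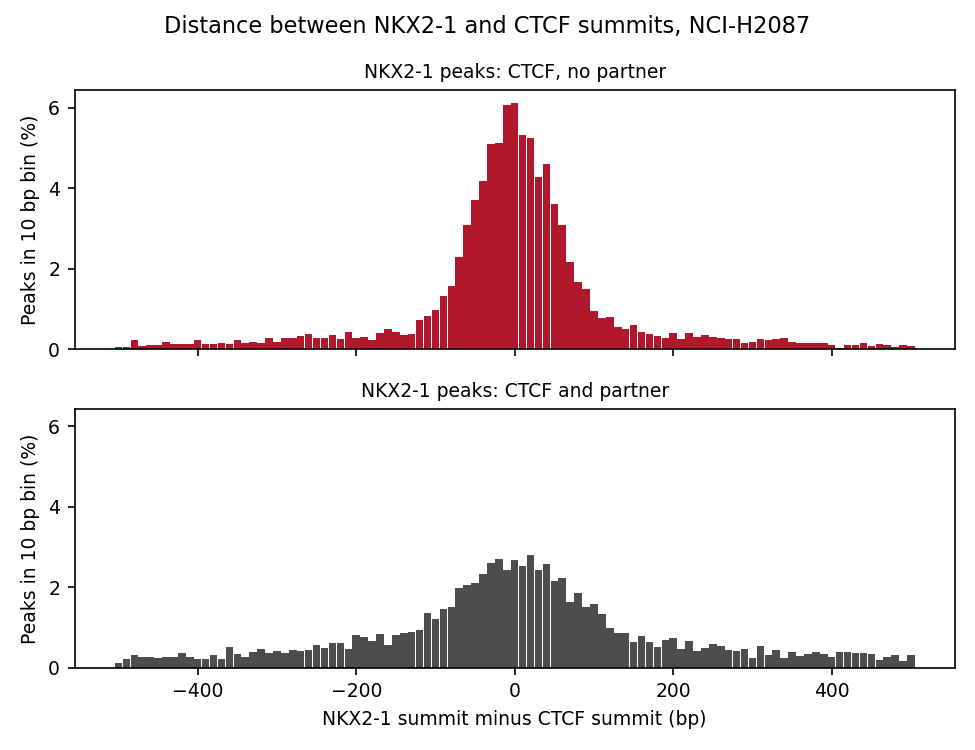
Share of NKX2-1 peaks (vertical axis, %) by the NKX2-1 summit position minus the CTCF summit position in 10 bp bins (horizontal axis, bp), for the 7776 CTCF-only NKX2-1 peaks (top, red) and the 7830 NKX2-1 peaks on CTCF with a partner (bottom, grey), both in NCI-H2087. The central bin holds 6.12% of the CTCF-only peaks and 2.67% of the partnered peaks, and both distributions are centred near 0.

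Other factors in NCI-H2087 came less close to CTCF by the same measure. Of all NKX2-1 peaks on a CTCF peak, 37.7% (37.0% to 38.5%) had summits within 50 bp, with a median distance of 76 bp. The shares were 23.01% for FOXA1 and 23.1% for FOXA2, with medians of 128 and 135 bp. For c-Jun, EP300 and SOX2 they were 14.3%, 12.99% and 10.7%. Median widths of these CTCF-bound peaks ran from 408.5 bp for SOX2 to 502 bp for FOXA2, with 477 bp for NKX2-1, and the part of width in these distances was not tested.

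Against the whole NKX2-1 list, H3K27ac and H3K4me1 were less common at the CTCF-only peaks. H3K27ac overlapped 35.7% of them (34.6% to 36.8%), against 68.1% on CTCF with a partner, 44.1% with neither, and 52.5% of all NKX2-1 peaks. H3K4me1 overlapped 26.7% (25.7% to 27.7%), against 63.0% and 47.3%, and 61.7% of all NKX2-1 peaks. This share depended on the threshold: it was 17.3% with a −log10 q of at least 10 in every list, against 55.04% and 32.4% and 49.4% of all NKX2-1 peaks, and 16.2% in the 20000 strongest peaks of each list, against 48.1% and 29.9% and 50.2% of all. RNA polymerase II overlapped 26.6% (25.6% to 27.6%), against 41.1% and 26.0%, and 24.8% of all NKX2-1 peaks. None of the 4 marks was present at 44.4% (43.2% to 45.5%) of the CTCF-only peaks, against 15.1%, 29.2% and 22.8% of all NKX2-1 peaks. Over all peaks of each set, the low H3K27ac and H3K4me1 shares held against both CTCF-bound partnered peaks and the equally wide peaks with neither. The polymerase share was near that of the peaks with neither and of the whole list. Against peaks with neither, the H3K27ac gap was smaller at higher NKX2-1 fold. It was 35.9% against 47.8% in the lowest quartile of fold and 45.3% against 46.4% in the highest. In the 20000 strongest peaks of each list H3K27ac was at 26.3% against 30.3%. Under each of these cuts the sets were formed anew from the cut lists. A peak whose partner peak was cut then counted as partner-free.

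H3K4me3 went the other way. It overlapped 35.0% of the CTCF-only peaks (34.0% to 36.1%), against 34.9% on CTCF with a partner, 27.8% with neither and 20.4% of all NKX2-1 peaks. H3K4me3 without H3K27ac was found at 7.87% of the CTCF-only peaks (7.28% to 8.49%), against 2.87% and 3.36%. H3K27ac without H3K4me3, the enhancer-like combination, was found at 8.54% (7.93% to 9.18%), against 36.1% and 19.6%. Thus most of the acetylated CTCF-only peaks also carried H3K4me3, and about equal numbers, 664 and 612, had one of these marks without the other. With 1 library per antibody these intervals cover counting error only, and no test between the sets was possible within NCI-H2087.

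**Figure D2:**
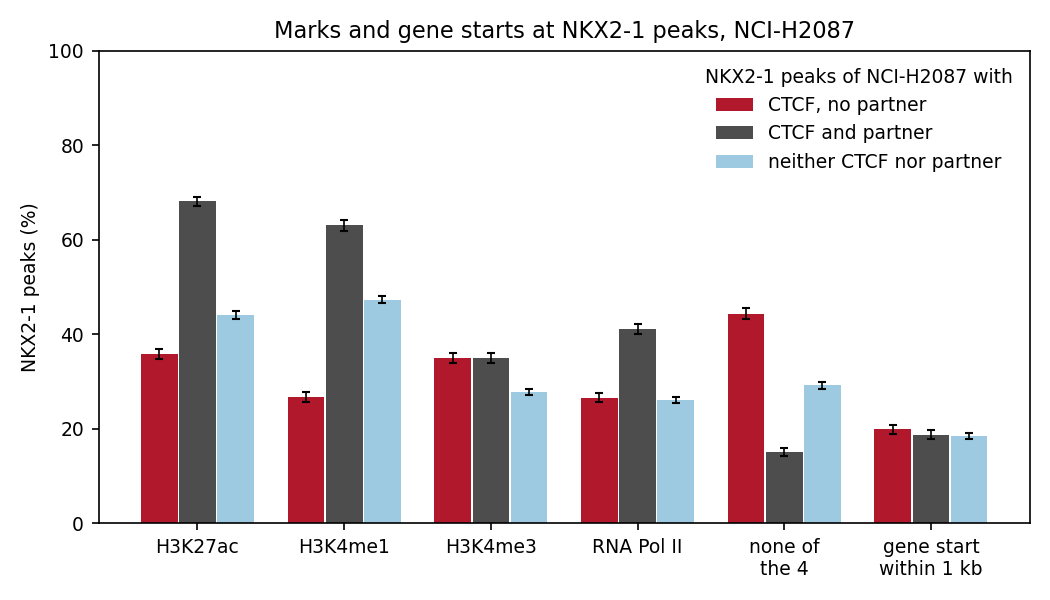
Share of NKX2-1 peaks of NCI-H2087 (vertical axis, %) that overlapped H3K27ac, H3K4me1, H3K4me3, RNA polymerase II or none of the 4, and share with the summit within 1 kb of a gene start. Bars give the CTCF-only peaks (red, 7776), peaks on CTCF with a partner (grey, 7830) and peaks with neither (blue, 16502), and error bars the exact 95% intervals. CTCF-only peaks had the lowest H3K27ac and H3K4me1 bars and the highest bar for no mark (44.4%), while the 3 bars for gene starts lay between 18.5% and 19.9%.

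Promoters took up 19.9% of the CTCF-only peaks (19.0% to 20.8%), counted as an NKX2-1 summit within 1 kb of the start of a protein-coding gene. The share was 18.7% (17.9% to 19.6%) on CTCF with a partner, 18.5% (17.9% to 19.1%) with neither and 11.8% of all NKX2-1 peaks. The CTCF-only peaks were thus close to the other CTCF-bound peaks and to the other partner-free ones in this respect. For 20.8% of the genes, whose strand was not known, either gene end counted as a start.

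The 1544 CTCF-only peaks at promoters and the 6232 away from them had different marks. At promoters H3K4me3 overlapped 92.6%, H3K27ac 83.9%, RNA polymerase II 79.5% and H3K4me1 21.6%, and 3.76% had no mark. The 3048 promoter peaks with neither CTCF nor a partner had 93.0%, 87.4%, 83.0%, 19.6% and 2.23%, so the lower H3K4me1 of the whole set was not seen at promoters against that set. Promoter peaks on CTCF with a partner had 94.2%, 93.3%, 89.2%, 29.9% and 1.23%. Away from promoters H3K4me3 overlapped 20.8% of the CTCF-only peaks, against 21.2% on CTCF with a partner and 13.03% with neither. H3K27ac overlapped 23.8%, against 62.3% and 34.3%, RNA polymerase II 13.5%, against 30.03% and 13.1%, and H3K4me1 27.9%, against 70.7% and 53.6%. No mark was present at 54.4% (53.2% to 55.7%) of them, against 18.3% and 35.3%. Summits within 50 bp of each other were found at 28.2% of the promoter peaks and 55.4% of the others. When the 2 summits were over 100 bp apart and their midpoint was within 1 kb of a start, the NKX2-1 summit was the nearer to that start in 470 of 853 cases, or 55.1% (51.7% to 58.5%), at a median of 279 bp against 336 bp for CTCF.

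Marks were more frequent the farther apart the summits lay. H3K27ac overlapped 21.8% of the 3891 CTCF-only peaks with summits up to 50 bp apart, 29.4% of the 1632 at up to 100 bp, 57.2% of the 788 at up to 200 bp and 68.0% of the 1465 beyond that. H3K4me3 ran 21.3%, 29.5%, 52.4% and 68.3% over the same bins, and RNA polymerase II 14.9%, 21.3%, 42.8% and 54.8%. The change in H3K4me1 was smaller, 21.8%, 26.5%, 33.1% and 36.3%. Peaks with no mark made up 59.0% of the closest bin and 11.9% of the farthest. The share at promoters was larger at larger distances as well, 11.2%, 16.6%, 33.4% and 39.2%.

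Outside promoters the same order was seen: H3K27ac overlapped 15.2%, 19.4%, 40.8% and 53.6% from the closest to the farthest bin. Median peak width went up over the bins, 350, 365, 417 and 518 bp, and a wider peak has more bases to overlap a mark. The CTCF fold beneath the peaks went down, 57.0, 52.6, 25.3 and 25.8, while the NKX2-1 fold stayed between 6.14 and 6.54. The part of width in the frequency of the marks was not tested. The same gradient was present on CTCF with a partner, at a higher level: H3K27ac overlapped 49.6%, 58.5%, 73.0% and 82.1% of those peaks over the bins, no mark was present at 31.1% of the closest and 5.41% of the farthest, and the CTCF fold was 40.6 in the closest bin and 17.1 in the farthest. Both CTCF-bound sets thus showed the gradient.

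**Figure D3:**
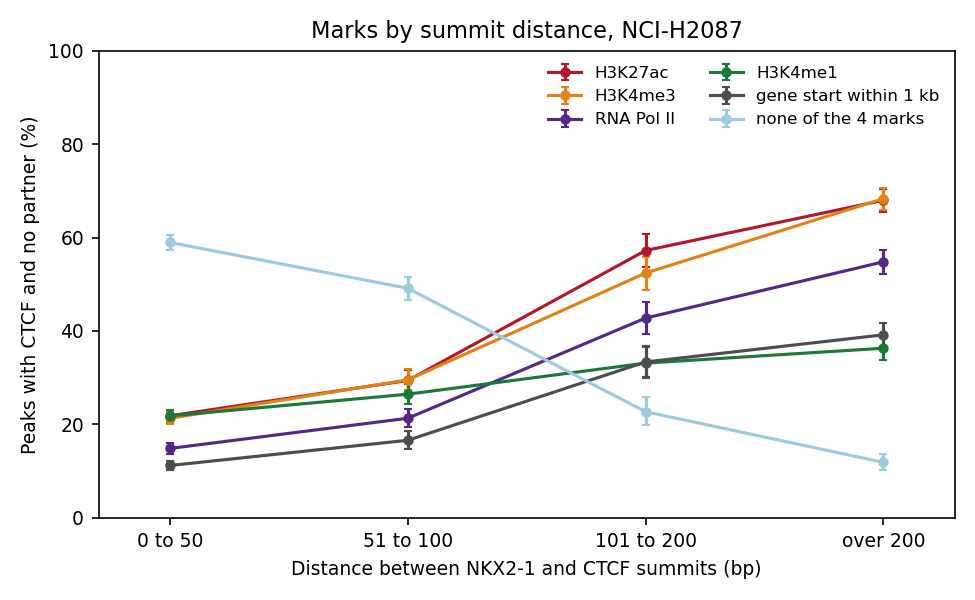
Share of CTCF-only NKX2-1 peaks of NCI-H2087 (vertical axis, %) with each mark, with no mark, or within 1 kb of a gene start, by the distance between NKX2-1 and CTCF summits in 4 bins (horizontal axis, bp). Points are shares with exact 95% intervals, over 3891, 1632, 788 and 1465 peaks from left to right, with H3K27ac at 21.8% in the first bin and 68.0% in the last and no mark at 59.0% in the first and 11.9% in the last.

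NKX2-1 was found at most CTCF-only peaks in the other 3 lines, which the rule did not use. In NCI-H358 65.2% were bound, against 78.1% of the NKX2-1 peaks on CTCF with a partner, 47.1% of those with neither and 61.8% of all NKX2-1 peaks. In NCI-H441 the shares were 71.1%, against 87.2%, 67.5% and 75.7%. In HCC364 they were 79.5%, against 82.0%, 54.6% and 63.3%. Over all peaks of each set, the CTCF-only peaks were thus bound less often than partnered CTCF-bound peaks and more often than peaks with neither in each line, but in HCC364 the first order turned among peaks of like NKX2-1 fold, as given below. Only in NCI-H441 were the CTCF-only peaks bound less often than the whole list. In HCC364 the difference from partnered peaks was −2.47 points, and −0.004 points with a −log10 q of at least 10 in every list. Binding was scored by overlap, which favours wide peaks, and the partnered peaks were wider. The part of width in these shares was not tested.

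With the line as the unit, CTCF-only peaks averaged 71.9% ± 7.21 bound (SD, n = 3 lines), against 82.4% ± 4.57 on CTCF with a partner, a difference of −10.5 points ± 7.12 that was negative in 3 of 3 lines. Against peaks with neither, which averaged 56.4% ± 10.3, the difference was 15.5 points ± 10.8 and positive in 3 of 3 lines, at 18.1, 3.66 and 24.9 points in NCI-H358, NCI-H441 and HCC364. Both gave p = 0.25 in a two-sided exact permutation that flips the sign of each line, which is the smallest p that 3 lines allow, and 0.25 after Benjamini-Hochberg adjustment over 6 such tests, so neither passed. When the sets were formed anew from the 20000 strongest peaks of each list, 501 peaks were members. The difference from peaks with neither was then 13.2 points and negative in NCI-H441 (−6.06 points, exact p = 0.5). That from partnered peaks was −5.20 points. The EP300 and SOX2 lists, at 7406 and 9262 peaks, are shorter than this cut and stayed whole.

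All 4 lines had NKX2-1 at 3780 CTCF-only peaks, or 48.6% (47.5% to 49.7%), against 65.6% on CTCF with a partner, 27.9% with neither and 43.6% of all NKX2-1 peaks. With the sets formed anew from the 20000 strongest peaks of each list, this share was 31.1% of 501 CTCF-only peaks. It was 43.1%, 18.6% and 30.8% in the other sets in the same order, so there it was near that of all NKX2-1 peaks. Another 2068 were bound in 3 lines and 1304 in 2, and 624 (8.02%) in NCI-H2087 alone. Among the peaks bound in exactly 1 further line, 720 were shared with HCC364, 357 with NCI-H441 and 227 with NCI-H358. The 3780 had a median NKX2-1 fold of 7.40 in NCI-H2087, against 5.20 in the 624, and a CTCF fold of 52.0 against 41.7. At promoters 57.3% of the CTCF-only peaks were bound in all 4 lines, against 78.5% on CTCF with a partner and 45.9% with neither, and away from promoters 46.5%, against 62.7% and 23.8%. By summit distance this share hardly moved, 48.0%, 50.9%, 49.6% and 47.2% over the 4 bins, unlike the marks. Binding in HCC364 was 81.5% in the closest bin and 75.8% in the farthest.

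**Figure D4:**
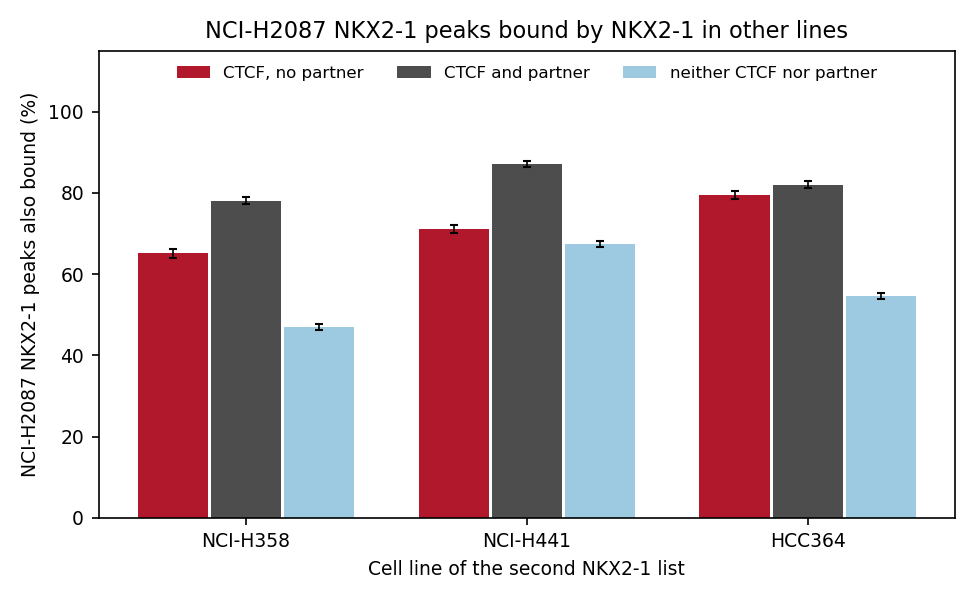
Share of NKX2-1 peaks of NCI-H2087 (vertical axis, %) that overlapped an NKX2-1 peak of NCI-H358, NCI-H441 or HCC364 (horizontal axis), for CTCF-only peaks (red, 7776), peaks on CTCF with a partner (grey, 7830) and peaks with neither (blue, 16502). Error bars are exact 95% intervals for counting error, and in each line the red bar lies below the grey and above the blue, by 3.66 points over the blue in NCI-H441 and 24.9 points in HCC364.

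Stronger peaks were bound in more lines, so the sets were also compared within quartiles of the NKX2-1 fold of NCI-H2087. In the lowest quartile, with folds under 5.93, 60.3% of the 3159 CTCF-only peaks were bound on average over the 3 lines, against 65.0% of the partnered peaks and 46.7% of those with neither. In the second quartile these means were 74.0%, against 78.5% and 57.0%, and in the third 86.4%, against 87.4% and 68.1%. In the highest quartile, which held only 397 CTCF-only peaks, the mean was 93.3%, against 91.1% and 77.5%. The lines differed beneath these means. In HCC364 the CTCF-only peaks were bound more often than the partnered ones in each quartile, by 1.899, 1.48, 3.73 and 5.81 points from the lowest to the highest. In NCI-H441 they were bound less often in each, by −10.2, −9.07, −4.76 and −0.44 points, and in NCI-H358 the differences were −5.80, −6.07, −1.84 and 1.27 points. Against peaks with neither the differences were positive in each line and quartile, at 3.44 to 4.95 points in NCI-H441, 13.7 to 24.4 points in NCI-H358 and 19.8 to 28.1 points in HCC364. These quartile values were not tested.

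Where a peak of another line overlapped a CTCF-only peak, its NKX2-1 summit often lay near the same spot. Overlap was required, and where several peaks overlapped, the summit nearest the CTCF summit was taken. Both steps favour short distances. Where a CTCF-only peak was bound, the summit of the other line was within 50 bp of the NCI-H2087 CTCF summit in 49.8% of the peaks of NCI-H358 (48.4% to 51.2%), 45.4% of those of NCI-H441 (44.1% to 46.7%) and 50.5% of those of HCC364 (49.2% to 51.7%). The medians were 51, 58 and 50 bp. The median distance from the NCI-H2087 NKX2-1 summit was 26 bp in NCI-H358 and NCI-H441 and 24 bp in HCC364. CTCF was not mapped in these lines, so the CTCF position is that of NCI-H2087. In HCC364 the CTCF-only regions bound there had a median fold of 9.87, above the 9.03 of its whole NKX2-1 list. Over the regions bound in each line, the medians were 8.05 against 9.14 in NCI-H441 and 7.71 against 7.78 in NCI-H358. In NCI-H2087 the median was 6.44 against 8.29, but over all 7776 peaks, with those bound in no other line included. The NCI-H2087 value is therefore not like for like with the others.

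H3K27ac and H3K4me1 at CTCF-only peaks were low in the other lines too. H3K27ac overlapped 32.7% of them by the NCI-H358 list, 33.0% by that of NCI-H441 and 38.2% by that of HCC364, against 57.6%, 60.9% and 59.2% on CTCF with a partner, 37.2%, 42.4% and 41.2% with neither, and 42.5%, 46.3% and 43% of all NKX2-1 peaks of NCI-H2087. H3K4me1 overlapped 26.2%, 31.6% and 28.1% in the same order of lines, against 57.3%, 66.2% and 53.6%, 41.0%, 54.5% and 40.04%, and 55.2%, 63% and 51.1%. In each of the 3 lines the CTCF-only set had the lowest share of both marks.

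Averaged over the 3 lines, H3K27ac at CTCF-only peaks lay −24.6 points ± 3.44 from peaks on CTCF with a partner and −5.66 ± 3.32 from those with neither (SD, n = 3 lines). H3K4me1 lay −30.4 ± 4.64 and −16.6 ± 5.72 points away. All 4 were negative in 3 of 3 lines, with exact p = 0.25, the smallest possible, and 0.25 adjusted over the 6 tests. The −5.66 points shrank to −0.83 (exact p = 1) with sets formed anew from the 20000 strongest peaks of each list. The differences there were 1.45 points in HCC364, −5.85 in NCI-H441 and 1.91 in NCI-H358. Where membership was set by summits in place of peaks, the mean grew to −18.95 points. No line had H3K27ac at 51.7% (50.6% to 52.9%) of the CTCF-only peaks, against 22.4% on CTCF with a partner, 40.0% with neither and 35.1% of all NKX2-1 peaks. All 4 lines had it at 23.6%, against 43.6%, 24.7% and 27.8%, so this share was near that of peaks with neither and of the whole list.

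Seen from the CTCF list, CTCF-only NKX2-1 peaks gathered on the strongest CTCF peaks. When the 61072 CTCF peaks were cut into 10 equal classes by fold, 8.02% of the lowest class held a CTCF-only peak, 5.22% of the third class and 30.0% (28.8% to 31.1%) of the highest. CTCF peaks at other NKX2-1 peaks had a shallower course, at 20.7% of the lowest class, 11.1% of the third, 10.3% of the sixth and 15.3% of the highest. HCC364 NKX2-1 was at 64.3% of the highest class, against 47.1% for NCI-H441, 45.3% for NCI-H2087 and 43.1% for NCI-H358. FOXA1 was at 16.7% of the lowest class, 10.3% of the third and 16.5% of the highest. CTCF peaks of the highest class were also wider (median 1006 bp, against 317 bp in the lowest), and the part of width in the slope was not tested.

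**Figure D5:**
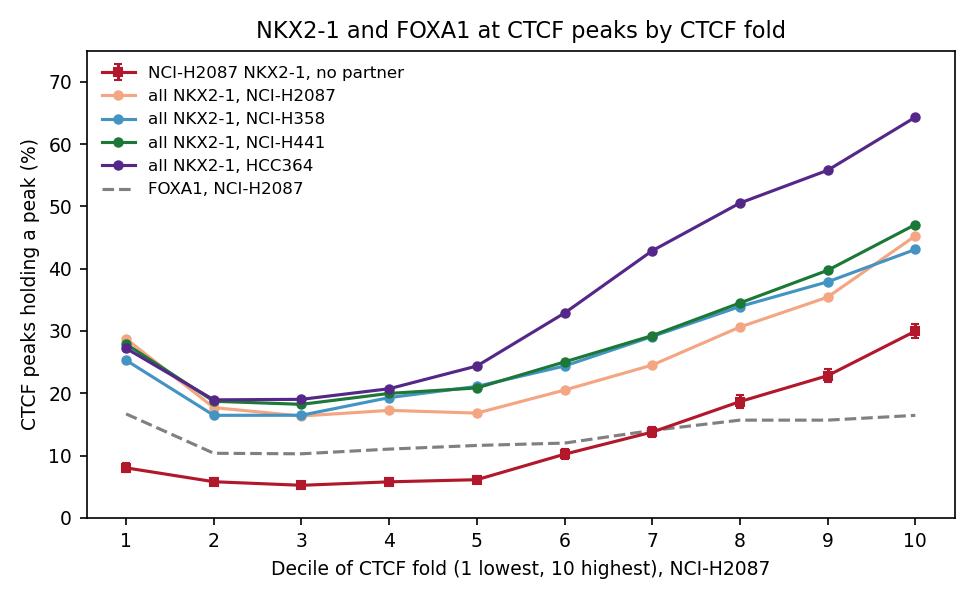
Share of NCI-H2087 CTCF peaks that held a given peak (vertical axis, %) by decile of CTCF fold (horizontal axis, 1 lowest to 10 highest, about 6107 peaks each), for CTCF-only NKX2-1 peaks (red squares, with exact 95% intervals), all NKX2-1 peaks of each of the 4 lines (circles) and FOXA1 of NCI-H2087 (dashed grey). The red line is at 5.22% in the third decile and 30.0% in the tenth, the HCC364 line reaches 64.3%, and the FOXA1 line is at 16.7% in the first decile, 10.3% in the third and 16.5% in the tenth.

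The CTCF peaks beneath CTCF-only peaks carried more marks than those with neither NKX2-1 nor a partner, and more of them lay at promoters. H3K27ac overlapped 37.5% of the 7720, against 66.7% of the 7746 CTCF peaks at other NKX2-1 peaks and 6.53% of the 41854 CTCF peaks with neither NKX2-1 nor a partner. H3K4me1 overlapped 31.7%, against 61.5% and 7.98%, and H3K4me3 35.7%, against 34.2% and 8.30%. NKX2-1 of HCC364 was at 79.8% of the 7720 CTCF peaks, at 79.6% of the 7746 and at 19.4% of the 41854. The CTCF peaks beneath CTCF-only peaks were wider (median 845 bp) than those of the other 2 sets (669 and 611 bp). Of the 7720, 19.8% lay at promoters, against 18.9% and 5.88%. Partner peaks were excluded from the 41854 but not from the 7720, which could hold one beyond the NKX2-1 peak. Among all 45606 CTCF peaks without NKX2-1, H3K27ac overlapped 7.22%. The parts of promoters and width in these differences were not tested.

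The strongest CTCF-only peaks by NKX2-1 fold were mostly shared between lines, and 5 of the first 8 lay over 1 kb from a start. The highest lay 10320 bp from the nearest start, that of PVALB, which encodes a calcium-binding protein (chr22:36829497-36830118), with folds of 44.2 in NCI-H2087, 57.4 in HCC364 and 74.9 in NCI-H441 and no peak in NCI-H358. The peak nearest ATAD3B, a gene for a mitochondrial ATPase (chr1:1500669-1501363), had folds of 43.9 in NCI-H2087, 47.1 in HCC364, 46.1 in NCI-H441 and 11.5 in NCI-H358 on a weak CTCF peak of fold 6.13, with the summits 266 bp apart. The peak nearest HPCAL4, of the neuronal calcium sensor family (chr1:39701723-39702361), had folds of 41.1, 71.0, 57.1 and 51.03 in the same order of lines, with the summits 4 bp apart on a CTCF peak of fold 67.1 and none of the 4 marks. These 3 peaks were high in every line that bound them, apart from the ATAD3B one in NCI-H358.

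The next 5 were nearest to FAM32A, SH2B3, MAN1C1, BIN1 and MORN5, at NKX2-1 folds of 36.5 to 30.7. At FAM32A and MORN5 the NKX2-1 summit lay 7 and 8 bp from a start. SH2B3, which encodes an adaptor that restrains cytokine signalling, carried all 4 marks at a summit 338 bp from its start. The peak nearest BIN1, which encodes a membrane-bending protein, was 81323 bp away and had a fold of 31.5 in NCI-H2087, 94.9 in HCC364 and 9.68 in NCI-H358, with no peak in NCI-H441. Of the first 8, 6 were bound in all 4 lines.

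The 8 peaks bound in all 4 lines with the highest CTCF fold were nearest to CELSR2, NECTIN1, PTGES2, MYO7A, FAM240C, RFX7, GBX1 and RECK. The CTCF fold was 207 in the CELSR2 case, a gene for an atypical cadherin (chr1:109263611-109264010), where NKX2-1 folds were 9.77 in NCI-H2087, 6.84 in HCC364, 7.01 in NCI-H441 and 7.44 in NCI-H358. In the RECK case, a gene for an inhibitor of matrix metalloproteinases (chr9:36008752-36009147), CTCF had a fold of 153 and NKX2-1 6.88, 9.32, 7.31 and 8.25 in the same lines, with the summits 9 bp apart. NKX2-1 folds varied more over the lines at others of the 8, with 4.97 to 18.9 in the FAM240C case, 6.45 to 23.96 in the GBX1 case and 4.83 to 17.2 in the NECTIN1 case. Of the 8, 6 carried none of the 4 marks, and the exceptions were the peaks at MYO7A and RFX7.

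Of CTCF-only peaks at promoters with summits within 50 bp, the 8 highest by NKX2-1 fold were at TBL2, KDM1A, OTUD3, CIDEB, SLC25A23, WIPF2, NUCKS1 and PRPF38A. The TBL2 peak had NKX2-1 folds of 26.0 in NCI-H2087, 52.2 in HCC364, 14.3 in NCI-H441 and 20.1 in NCI-H358. At KDM1A, which encodes a histone demethylase, they were 25.5, 31.4, 23.2 and 22.4, with the summit 152 bp from the start. The OTUD3 peak, whose sequence is given above, had 24.9, 52.0, 18.3 and 32.0. For these 3 peaks the HCC364 value was the highest of the 4 lines, as it was for the other 5. All of the 8 but CIDEB had H3K27ac and H3K4me3.

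By chromosome, the share of NKX2-1 peaks that were CTCF-only was lowest on chromosome 18, at 5.50% (4.13% to 7.15%), and 13, at 6.78%, and highest on 17, at 14.9% (13.6% to 16.2%), and 19, at 14.2%. By gene, 45.3% of 19974 protein-coding genes had a CTCF-only peak within 50 kb and 8.22% within 1 kb, and the mean was 0.706 peaks per gene. Distances were counted from the starts of genes with a strand and from both ends of the 20.8% without one. Counts are therefore not fully alike between genes, here and in the gene lists. The mitochondrial carrier gene SLC25A48 had the most, 7 of the 9 NKX2-1 peaks within 50 kb. All 6 NKX2-1 peaks within 50 kb of SULT2A1, a sulfotransferase gene, were CTCF-only, and 5 of them were bound in all 4 lines. ELMO3, COASY, GBGT1, MLX, PDZD7, PHLDA3 and SFXN3 also had 6 each and B3GNT9 had 5, but COASY and MLX, PDZD7 and SFXN3, and ELMO3 and B3GNT9 are neighbours and share peaks.

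Gene lists were read against the 45.3% of all genes with a CTCF-only peak within 50 kb and the mean of 0.706. Among alveolar type 2 genes 7 of 15 had one (mean 0.667), with 3 at MUC1, a membrane mucin, 2 at SFTPB, surfactant protein B, and 1 at CTSH, a cathepsin. None of the 15 had one within 1 kb. Among lung and foregut transcription factors it was 5 of 12 (mean 0.667), with 3 at SOX9, 2 at FOXA1 and 1 at ELF3. Receptor tyrosine kinases and MAPK output genes had 6 of 12 (mean 0.583), among them the receptors ERBB3 with 2 and MET with 1 and the feedback inhibitor SPRY4 with 1. CTCF and cohesin genes had 5 of 12 (mean 0.417), with 1 each at CTCF itself, the cohesin acetyltransferase gene ESCO1 and the cohesin loader gene MAU2. These 4 lists were near the share over all genes.

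Other lists had higher shares. Epithelial keratin and junction genes had a peak at 11 of 14 (mean 1.57), with 3 each at KRT7 and KRT19 and 2 at the claudin gene CLDN3. All of these were bound in all 4 lines, but CLDN3 was named over other genes with 2 by that binding. Of those, KRT8 had 2 bound in all 4 lines, EPCAM, CLDN4, CLDN7 and CGN 1 each, and CDH1 0. Alveolar type 1 genes had 8 of 10 (mean 1.10), with 2 each at the water channel gene AQP5, EMP2 and CLIC5. Housekeeping genes, listed as a plain reference, had 7 of 10 (mean 1.20), with 3 at GAPDH, 2 at ACTB and 2 at SDHA, so a high share was also seen outside the lung lists.

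Clustered genes also had many but shared them. Of 36 protocadherins, whose promoter choice is known to use CTCF, 31 had one (mean 1.72), yet these were 14 distinct peaks, with 4 each at PCDHB3, PCDHB4 and PCDHGB1. Of 39 HOX genes 24 had one (mean 0.949), from 6 distinct peaks, with 2 each at HOXC4, HOXC5 and HOXC10. Imprinted genes had 11 of 18 (mean 1.00), with 3 each at IGF2, CDKN1C and PHLDA2, which lie in 1 region of chromosome 11. Class II MHC genes had 8 of 10 (mean 1.00), with 2 each at HLA-DQB1 and CD74 and 1 at HLA-DMA. Around NKX2-1 itself 4 of 8 matched genes had one (mean 0.875), with 3 at SLC25A21, 2 at PAX9 and 1 at NFKBIA. That share was near the 45.3% of all genes. The lists are short and were chosen with results of these data known, so these counts describe and do not test them.

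A peak list depends on antibody, depth and threshold, and a missing partner or mark peak is not a missing protein. Over the 20 lists peak numbers ran from 7406 for EP300 to 121789 for H3K4me1 of HCC364, and the EP300 and SOX2 lists were the shortest. The lowest background solved from each NKX2-1 list, a measure of relative depth, was 2.54 fragments in HCC364, 2.85 in NCI-H441, 2.72 in NCI-H358 and 2.65 in NCI-H2087. HCC364, with the lowest of these, had the largest share of its NKX2-1 list on NCI-H2087 CTCF peaks, at 25.4%, against 19.1% in NCI-H441, 21.7% in NCI-H358 and 20.6% in NCI-H2087.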

How the data were processed

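The deposited files are narrowPeak lists, 1 per library and build hg38 (GRCh38) per the submitters' processing notes, which name MACS2 (2.1.1 and 2.2.7.1), SAMtools 1.9, Bowtie2 2.2.9, Trimmomatic 0.36 and bedtools without their roles. In the lists deposited by the authors, column 7 is fold, a linear ratio of summit signal to local background, and columns 8 and 9 are −log10 p and −log10 q. Each list starts just above a −log10 q of 3. Total reads are not given in the sources used here. The 5 input libraries were not analysed.

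From these lists, peaks on chromosomes 1 to 22 and X were compared by overlap of at least 1 bp with Python 3.11.15, NumPy 2.4.6, pandas 2.3.3 and SciPy 1.17.1, and the code was tested on simulated peaks. Pileup and background were solved from fold and p within 0.01 of the written −log10 p, for peaks with a −log10 p under 250. Peaks of 1 library are not replicates, so shares have exact Clopper-Pearson 95% intervals for counting error only, and the line was the unit of each test. Gene starts came from RefSeq tables of GRCh38.p14, every start of the promoter table for 15812 of 19974 protein-coding genes and both gene ends for the rest.

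Named peaks are the 8 highest by NKX2-1 fold, the 8 bound in 4 lines with the highest CTCF fold and the 8 highest promoter peaks with summits within 50 bp, each named by its nearest gene. Named genes are the 10 with the most members within 50 kb (ties by members bound in 4 lines, then by name) and the first 3 of each list. Members, lists and comparisons were chosen with earlier results of these data known.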

Additional observations from a re-analysis of the deposited data

Results flagged for a closer look

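Set against the 43549 NKX2-1 peaks with a partner and no CTCF, the CTCF-only peaks did not keep 1 direction over the lines. The share bound by NKX2-1 differed by 1.36 points in NCI-H358, −6.45 points in NCI-H441 and 19.2 points in HCC364. The lines moved opposite ways, with shares of 65.2%, 71.1% and 79.5% for CTCF-only peaks and 63.8%, 77.6% and 60.3% for peaks with a partner and no CTCF. Each line is 1 library, so the difference between lines was not tested. The comparison with this set was added after the data were seen.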

How the results depend on the processing

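Of 48 shares of members recomputed under alternatives, 13 stayed within their counting interval and 35 moved, and of 6 recomputed member numbers 5 stayed within 1.5 times of 7776. The 54 recomputed mean differences over lines kept their sign, which says nothing of a threshold that 3 lines cannot reach. Membership by summits (within 100 bp of CTCF, no partner summit within 250 bp), by CTCF over at least 50% of the peak, and by no partner within 1 kb gave H3K27ac at 27.1%, 31.4% and 30.9%, H3K4me1 at 25.2%, 25.6% and 23.9%, H3K4me3 at 25.6%, 31.2% and 32.0%, RNA polymerase II at 18.6%, 22.6% and 23.3%, promoters at 13.3%, 17.1% and 17.9%, and summits within 100 bp at 100%, by construction, 76.9% and 73.1%. Binding in all 4 lines was 50.1% by summits. The rule applied anew to the 20000 strongest peaks of each list gave 501 members. They had H3K27ac at 26.3%, H3K4me1 16.2%, H3K4me3 28.1%, RNA polymerase II 24.4%, promoters 14.8% and binding in all 4 lines 31.1%. This cut did not shorten the EP300 and SOX2 lists, which hold fewer peaks. It did shorten those of FOXA1, FOXA2 and c-Jun, and a peak whose partner peak was cut counted as partner-free. The same holds for the cuts by −log10 q below. A −log10 q of at least 10 gave H3K27ac 34.0%, H3K4me1 17.3%, RNA polymerase II 25.4% and 4 lines 50.4%, and one of at least 5 gave H3K4me1 25.02%. Summits within 50 and 200 bp were 50.04% and 81.2%. Promoters were 34.1% within 5 kb, 18.0% where the start carried H3K4me3, and 16.3% over genes with a strand, an alternative chosen after seeing the data. Leaving out 1 line at a time, the NKX2-1 difference from partnered CTCF-bound peaks ran from −14.5 to −7.69 points and from peaks with neither from 10.9 to 21.5. For H3K27ac these ranges were −26.4 to −23.0 and −6.97 to −3.79, and for H3K4me1 −32.9 to −28.3 and −18.9 to −13.4. No paired analysis was possible because there are no replicate numbers to pair libraries, while the peak sets themselves were compared within each line.

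Depth limits these lists: a peak under the threshold counts as absent, so shares between lines depend on library, antibody and threshold. With 3 other lines the exact tests have a smallest p of 0.25. Strand was lacking for 20.8% of genes, so some gene ends counted as starts. Marks and binding in other lines were scored by overlap, which favours wide peaks.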
